A study of Mus musculus with 6 samples.

Results

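The 50 genes described here encode the proteins that copy DNA in S phase and make the deoxynucleotides for it. They were taken as a list of mouse gene symbols, and all 50 were found among the 55401 genes of the count table. By role, 12 of them license replication origins, 6 activate the replicative helicase, 8 encode polymerase and primase subunits, 8 the sliding clamp, its loader and the single-strand binding protein RPA, 2 finish Okazaki fragments, 5 make nucleotides, 4 carry chromatin and DNA methylation onto the new strands, and 5 are E2F factors and E-type cyclins of the G1 to S transition.

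RNA was sequenced from C3H10T1/2 cells, a line of mouse mesenchymal cells with the capacity to become osteoblasts, adipocytes or myocytes, in 3 derivatives with 1 library per condition and 6 libraries in all. The shControl cells expressed a control short hairpin RNA, the shNFIB cells a hairpin against the gene of the transcription factor NFIB, and the shMLL1 cells a hairpin against Kmt2a, the gene of the histone methyltransferase MLL1. Each was sampled untreated at day 0, when cultures had reached confluence, and at day 7 of osteogenic medium, in which dexamethasone was at 0.1 µM, β-glycerophosphate at 20 mM and ascorbic acid 2-phosphate at 100 µg/ml, which all 3 derivatives received alike. The Nfib hairpin matches the 3′ untranslated region of its target. With 1 library per condition, the 3 libraries of a day are 3 different derivatives rather than repeats of a culture. The fit for the day removed steady differences between derivatives. Its p-value is therefore set in part against how much the day change varied between the derivatives, not against repeats of a culture. The test also draws each gene's spread toward that of the other genes tested. The p-values and standard errors thus rest partly on those genes.

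The libraries held between 21608680 and 34774066 counts. Values are given as CPM, the counts of a gene scaled to a common library size, after adjustment by the trimmed mean of M-values, always in the order shControl, shNFIB and shMLL1. Nfib stood at 116, 35.3 and 65.5 CPM at day 0 and 83.5, 8.15 and 72.7 at day 7, and Kmt2a at 74.7, 86.5 and 30.9 and then 66.3, 94.0 and 34.8, so each hairpin's target was lowest in its own cells on both days. Mesenchymal markers, 9 in all, summed to between 5815 and 13849 CPM, and 8 markers of blood, endothelial, epithelial and muscle cells to between 2.53 and 9.22 CPM, with Epcam and Krt18 at 0 in every library. The sums hide differences in single markers. The blood marker Cd68 stood at 1.94, 1.20 and 2.19 CPM at day 0 and 7.12, 3.99 and 7.58 CPM at day 7. The muscle marker Des stood at 2.63, 0.950 and 0.398 CPM at day 0. Among mesenchymal markers, Thy1 stood at 68.1, 298 and 32.4 CPM at day 0.

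Replication starts with licensing in G1: the origin recognition complex (ORC), Cdc6 and Cdt1 load the ring-shaped MCM2-7 helicase onto DNA. In S phase Cdc45 and the GINS complex turn each ring into an active helicase, polymerase alpha-primase lays primers, and polymerases delta and epsilon extend them together with the clamp Pcna. Many of these genes are known targets of E2F factors, which the retinoblastoma family holds in check in cells that have left the cycle.

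RefSeq promoter windows on GRCm38.p6, from 250 bases before to 50 bases after the transcription start, had entries for 41 of the 50 genes. Those windows were searched on both strands for the E2F-type letters TTTGGCGC, TTTCGCGC, TTTCCCGC and TTTGCCGC. At least 1 of the forms was present for 16 of 41 genes (39.0%), against 486 of 10575 of the genes tested in the count data (4.60%) and 704 of 27025 of all genes with a window (2.60%), where a gene with several windows counted if any of them held it. By single windows the share was 16 of 51 (31.4%) against 744 of 32851 (2.26%). The 16 genes were Mcm3, Mcm5, Mcm6, Mcm7, Orc1, Cdc6, Cdt1, Gins3, Pola1, Pold1, Pole2, Rfc3, Lig1, Uhrf1, Dnmt1 and E2f2. Between day 0 and day 7 these 16 had a median log2 fold change of -2.37 and the 25 others with a window -2.17. A match is a run of letters and not a measured binding site.

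The windows of Mcm5 and Mcm6 are shown because they carry overlapping forms in opposite orientation, that of Cdc6 because its gene was among the most strongly lowered of the list, that of Orc1 because it also holds the start of a neighbouring gene that did not pass the test for the day, and that of Rpa3 because it holds no match and its gene changed least. Matches are in capitals. The Mcm5 window is chr8:75109259-75109558 (+ strand), that of Mcm6 chr1:128359656-128359955 (- strand), that of Cdc6 chr11:98907901-98908200 (+ strand), that of Orc1 chr4:108579204-108579503 (+ strand) and that of Rpa3 chr6:8259092-8259391 (- strand).
Mcm5: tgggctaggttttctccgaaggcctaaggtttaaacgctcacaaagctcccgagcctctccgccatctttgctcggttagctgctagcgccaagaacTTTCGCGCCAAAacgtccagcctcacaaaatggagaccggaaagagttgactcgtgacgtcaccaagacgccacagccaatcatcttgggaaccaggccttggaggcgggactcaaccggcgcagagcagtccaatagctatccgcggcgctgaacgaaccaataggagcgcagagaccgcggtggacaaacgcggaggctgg
Mcm6: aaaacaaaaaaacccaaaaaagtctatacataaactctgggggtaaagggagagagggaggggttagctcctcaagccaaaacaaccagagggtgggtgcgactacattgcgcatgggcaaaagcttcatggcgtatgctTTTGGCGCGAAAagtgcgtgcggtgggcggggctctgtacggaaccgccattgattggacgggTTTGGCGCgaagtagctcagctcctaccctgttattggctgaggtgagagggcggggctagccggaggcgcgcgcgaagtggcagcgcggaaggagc
Cdc6: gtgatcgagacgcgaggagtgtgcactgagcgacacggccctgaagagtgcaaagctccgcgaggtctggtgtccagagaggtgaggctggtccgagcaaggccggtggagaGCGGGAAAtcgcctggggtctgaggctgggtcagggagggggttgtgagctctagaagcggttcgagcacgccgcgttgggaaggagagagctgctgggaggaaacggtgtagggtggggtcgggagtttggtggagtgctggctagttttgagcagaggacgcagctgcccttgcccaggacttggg
Orc1: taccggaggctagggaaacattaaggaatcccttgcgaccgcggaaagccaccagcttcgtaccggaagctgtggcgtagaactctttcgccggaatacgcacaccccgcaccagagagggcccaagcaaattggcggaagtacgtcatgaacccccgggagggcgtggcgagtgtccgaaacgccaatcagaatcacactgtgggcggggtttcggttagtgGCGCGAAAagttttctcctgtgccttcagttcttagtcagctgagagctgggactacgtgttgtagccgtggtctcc
Rpa3: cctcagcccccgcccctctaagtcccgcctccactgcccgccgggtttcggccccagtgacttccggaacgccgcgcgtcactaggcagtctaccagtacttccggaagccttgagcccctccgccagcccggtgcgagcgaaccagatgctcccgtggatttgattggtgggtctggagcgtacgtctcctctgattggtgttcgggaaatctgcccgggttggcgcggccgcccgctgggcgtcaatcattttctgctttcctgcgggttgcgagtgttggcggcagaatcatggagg

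In Mcm5, matches began at base -153 and, on the other strand, at base -149, counted from the transcription start. Mcm6 held 3, beginning at bases -110, -106 and -47. Cdc6 held 1 at base -138 and Orc1 held 1 at base -27. Of the other letters searched, GGGCGG was present for 32 of 41 genes (78.0%) against 67.0% of the genes tested, CCAAT for 26 of 41 (63.4%) against 43.1%, and TTTGAA or TTCGAA, the letters of the cell cycle homology region, for 10 of 41 (24.4%) against 16.6%. The palindromic NFI letters, TTGGC and GCCAA with any 5 bases between them, were in the windows of 0 of 41 genes and in those of 12 of 27025 genes overall. Among the genes tested, 4 of 10575 held them. Letters this rare would be missing from almost any list of 41 genes, so the 0 says nothing about NFI binding at this set.

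Between day 0 and day 7, 48 of the 50 genes fell and none rose. Together the 50 genes summed to 4182, 5207 and 4533 CPM at day 0 and to 1259, 1269.8 and 1198 CPM at day 7. In a fit over the 6 libraries with the line as a block, the 48 were lower at day 7 and 0 were higher at an adjusted p under 0.05, against 17.0% of the 15741 genes tested lower and 17.7% higher (edgeR quasi-likelihood test, Benjamini-Hochberg over all genes tested). DESeq2 also called 0 higher and 49 lower, and the 49 members with an unadjusted edgeR p under 0.05 were all below 0. Of all genes tested, 47.4% had an unadjusted p under 0.05 in edgeR and 47.9% in DESeq2. The median log2 fold change was -2.30, with a range of -3.82 to -0.36, and that of all genes tested was -0.02. For 49 of 50 genes every day 7 library lay below every day 0 library, which held for 21.6% of all genes tested, and the exception was Rpa3. In bulk RNA, fewer cells in S phase and less of each RNA per cell cannot be told apart. No day 7 culture without osteogenic medium was sequenced, so effects of the medium and of the time since confluence cannot be told apart either.

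**Figure D1:**
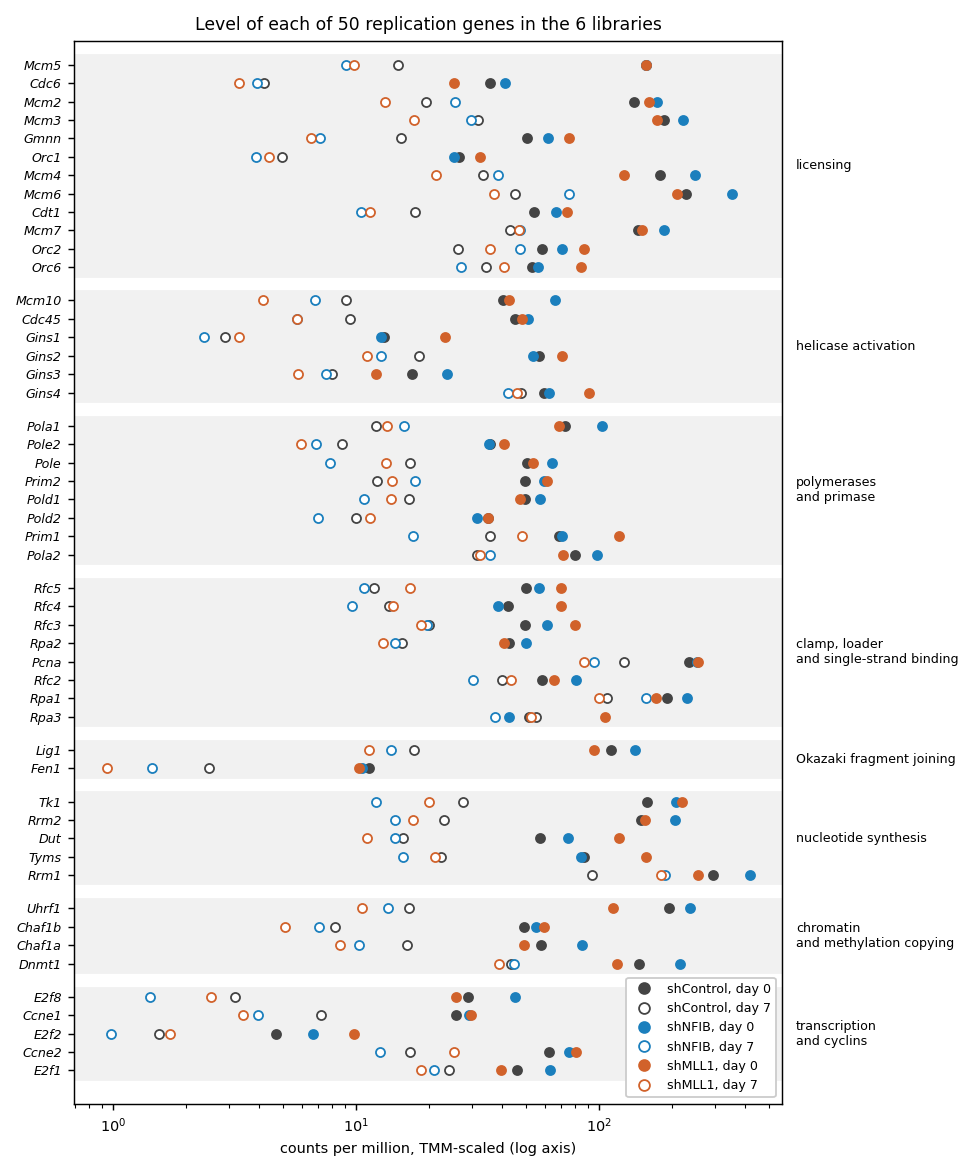
Level of each of the 50 genes in CPM (TMM-scaled, log axis) by role, with filled points for day 0 and open points for day 7, coloured by line, 1 point per library. Open points lie left of filled points of the same gene for 49 of 50 genes, and the points of Rpa3 overlap.

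**Figure D2:**
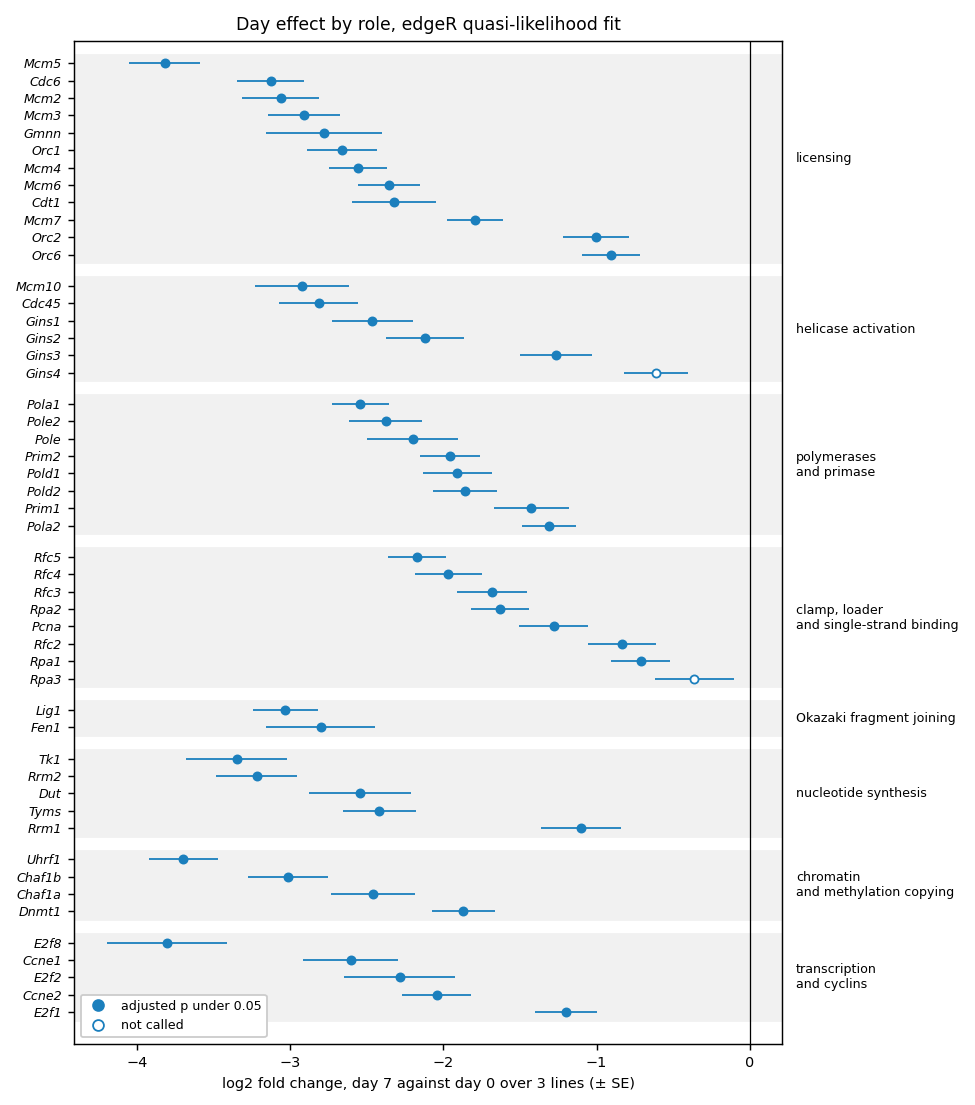
Log2 fold change of day 7 against day 0 over the 3 lines, with its standard error, for each gene by role, where filled points passed an adjusted p of 0.05 in edgeR's quasi-likelihood test. All 50 estimates are below 0, from -3.82 for Mcm5 to -0.36 for Rpa3, and Gins4 and Rpa3 are open.

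Licensing factors fell furthest among the larger groups, with a median log2 fold change of -2.61 and 12 of 12 called lower. Mcm5, a helicase subunit at chr8:75109569-75128439, + strand, stood at 156, 156 and 156 CPM at day 0, the closest agreement between lines of any of the 50 genes, and at 14.9, 9.10 and 9.84 CPM at day 7. Its log2 fold change was -3.82 ± 0.23 (SE, 3 libraries a day, adjusted p = 0.000497). Cdc6, the ATPase that helps ORC load the helicase, went from 35.5, 40.9 and 25.3 CPM to 4.20, 3.92 and 3.32 CPM, a log2 fold change of -3.13 ± 0.22 (adjusted p = 0.000524). The groups of libraries did not overlap for either gene. The other helicase subunits followed in the order Mcm2 (-3.06), Mcm3 (-2.91), Mcm4 (-2.56), Mcm6 (-2.35) and Mcm7 (-1.79), with standard errors between 0.18 and 0.25. Mcm7 shares exon sequence with Cops6 and Ap4m1 on the other strand, whose reads cannot be told apart from its own if the counting ignored strand.

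The loader Cdt1 and geminin (Gmnn), the protein that binds and inhibits it, both fell. Cdt1 stood at 53.9, 66.4 and 74.0 CPM and then 17.5, 10.5 and 11.5 CPM, and Gmnn at 50.4, 61.9 and 75.0 CPM and then 15.4, 7.14 and 6.52 CPM. Their log2 fold changes were -2.32 ± 0.27 (adjusted p = 0.00195) and -2.78 ± 0.38 (adjusted p = 0.00318). Per kilobase of exon, Cdt1 was at 0.499, 0.501 and 0.461 of the Gmnn level at day 0 and at 0.529, 0.685 and 0.822 of it at day 7.

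Within ORC the subunits parted. Orc1, the subunit whose level is known to follow the cell cycle, went from 26.6, 25.3 and 32.4 CPM to 4.95, 3.89 and 4.38 CPM, a log2 fold change of -2.66 ± 0.23 (adjusted p = 0.000748). Orc2 went from 58.4, 70.6 and 86.7 to 26.2, 47.4 and 35.4 CPM (-1.0 ± 0.22, adjusted p = 0.0146) and Orc6 from 52.8, 55.9 and 84.6 to 34.1, 27.1 and 40.7 CPM (-0.91 ± 0.19, adjusted p = 0.0134). The Orc2 call was lost without the shControl line (adjusted p = 0.0927). Orc3, Orc4 and Orc5, subunits outside the list, were not called, with log2 fold changes of 0.00 ± 0.17, -0.01 ± 0.22 and -0.31 ± 0.18.

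Of the 6 genes of helicase activation, 5 were lower, with a group median of -2.29. Mcm10, which helps switch the loaded helicase on, stood at 40.1, 66.2 and 42.6 CPM and then at 9.09, 6.77 and 4.14 CPM (-2.92 ± 0.30, adjusted p = 0.00128). Cdc45, a cofactor of the active helicase, stood at 45.0, 50.9 and 48.0 CPM and then at 9.48, 5.72 and 5.74 CPM (-2.81 ± 0.26, adjusted p = 0.000873). Both were highest in shNFIB at day 0 and highest in shControl at day 7.

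The 4 GINS subunits are parts of the same complex, and their RNAs changed by different amounts. Gins1 had a log2 fold change of -2.46 ± 0.27, Gins2 of -2.12 ± 0.25 and Gins3 of -1.26 ± 0.23. Gins4, at chr8:23226616-23237659, - strand, stood at 59.4, 62.1 and 90.8 CPM at day 0 and at 48.0, 42.2 and 45.9 CPM at day 7. Its day 7 libraries all lay below its day 0 libraries, and its log2 fold change of -0.61 ± 0.21 missed the threshold (adjusted p = 0.0588), while DESeq2 gave an adjusted p of 0.0480 and the fit to all genes with at least 1 count 0.0497. Per kilobase, Gins4 was the highest GINS subunit in all 6 libraries, at 44.0, 46.0 and 67.3 RPKM at day 0 and 35.6, 31.3 and 34.1 RPKM at day 7.

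All 8 polymerase and primase genes were lower, with a median of -1.93 and a narrower range than the licensing factors, from -2.54 to -1.31. Pola1, the catalytic subunit of polymerase alpha, went from 72.6, 102 and 68.7 CPM to 12.1, 15.8 and 13.4 CPM (-2.54 ± 0.19, adjusted p = 0.000576). Its partner Pola2 went from 80.0, 98.5 and 71.1 CPM to 31.5, 35.7 and 32.5 CPM (-1.31 ± 0.18, adjusted p = 0.00309), a smaller fall in each of the 3 lines. Prim1, the catalytic primase, varied most between lines at day 7, from 68.2, 70.6 and 121 CPM at day 0 to 35.8, 17.2 and 48.3 CPM, with shNFIB lowest.

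Pole and Pole2, the catalytic and second subunits of polymerase epsilon, had log2 fold changes of -2.20 ± 0.30 and -2.38 ± 0.24. The small histone-fold subunits of the same enzyme, Pole3 and Pole4, are outside the list. They had log2 fold changes of -0.75 ± 0.20 (adjusted p = 0.0270) and -0.58 ± 0.21 (adjusted p = 0.0748). Per kilobase, Pole3 stood at 50.5, 48.0 and 66.7 RPKM at day 0 and at 33.1, 31.8 and 31.9 RPKM at day 7, and Pole, whose exons overlap the antisense gene Gm15792, at 4.54, 5.72 and 4.79 and then 1.5, 0.703 and 1.19 RPKM. The delta subunits Pold1 and Pold2 had -1.91 ± 0.23 and -1.86 ± 0.21, and those outside the list, Pold3 and Pold4, -0.76 ± 0.18 and -0.76 ± 0.20.

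Clamp, loader and single-strand binding genes fell least, with a median of -1.46 and 7 of 8 called lower. Pcna, the sliding clamp, stood at 234, 252 and 255 CPM at day 0 and at 127, 95 and 86.5 CPM at day 7 (-1.28 ± 0.22, adjusted p = 0.00741). The loader subunits Rfc5, Rfc4 and Rfc3 fell by more (-2.17 ± 0.19, -1.97 ± 0.22 and -1.68 ± 0.23), and Rfc2 had -0.83 ± 0.22 (adjusted p = 0.0291). Rfc2 lost its call without shControl (adjusted p = 0.0744), without shNFIB (0.131) and when libraries were scaled by size alone (0.0607).

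RPA coats unwound single strands in replication and also in repair. Rpa2 stood at 42.8, 49.9 and 40.7 CPM and then 15.4, 14.5 and 12.9 CPM (-1.63 ± 0.19, adjusted p = 0.00184). Rpa1 stood at 191, 229.9 and 172 CPM and then 108, 157 and 100.4 CPM (-0.71 ± 0.19, adjusted p = 0.0297), a call lost without shControl (adjusted p = 0.213), without shNFIB (0.0569), with size scaling alone (0.0528) and without the block (0.0669). Rpa3, at chr6:8255936-8259173, - strand, stood at 51.6, 42.7 and 106 CPM at day 0 and at 55.0, 37.4 and 52.7 CPM at day 7. Its highest value was the shMLL1 library at day 0, the other 5 libraries spanned 37.4 to 55.0 CPM, and the log2 fold change of -0.36 ± 0.26 was not called (adjusted p = 0.304).

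Both genes of Okazaki fragment joining were lower. Lig1, the ligase that seals the fragments, went from 113, 140.5 and 94.9 CPM to 17.3, 13.9 and 11.3 CPM (-3.03 ± 0.21, adjusted p = 0.000524). Fen1, the flap nuclease, went from 11.4, 10.6 and 10.3 CPM to 2.49, 1.45 and 0.943 CPM (-2.80 ± 0.35, adjusted p = 0.00241) and had the smallest count of any of the 50 genes in a library, 23 in shMLL1 at day 7. Its exons overlap those of Tmem258 and Gm10143 on the other strand, so its level is uncertain in every library. In all, 16 of the 50 genes share exon bases with a gene on the other strand: Mcm7, Orc1, Orc2, Orc6, Cdc45, Gins2, Pole, Rfc2, Rfc4, Rfc5, Fen1, Lig1, Tk1, Chaf1a, E2f8 and Ccne2. Another gene shares exon bases on the same strand with 3 of the 50, Mcm7, Pole2 and Rpa1. Since the strand setting of the counting is not known here, the levels of all these genes, and the ratios between subunits that rest on them, carry the same uncertainty.

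All 5 nucleotide synthesis genes were lower, and they held both large and small falls. Tk1, the thymidine kinase of the salvage pathway, stood at 157, 206 and 219 CPM and then 27.5, 12.1 and 19.9 CPM (-3.35 ± 0.33, adjusted p = 0.00107). Tyms, which makes thymidylate, stood at 87.1, 84.0 and 155 CPM and then 22.4, 15.6 and 21.1 CPM (-2.42 ± 0.24, adjusted p = 0.00110). Dut, which clears dUTP and supplies the precursor of thymidylate, stood at 57.4, 74.3 and 120.2 CPM and then 15.7, 14.5 and 11.1 CPM (-2.54 ± 0.33, adjusted p = 0.00278). All 3 were lowest at day 0 in shControl or shNFIB and highest there in shMLL1.

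Ribonucleotide reductase turns ribonucleotides into deoxyribonucleotides with a large subunit, Rrm1, and a small subunit, Rrm2. Rrm2 went from 149, 205 and 154 CPM to 23.0, 14.5 and 17.3 CPM (-3.22 ± 0.26, adjusted p = 0.000706). Rrm1, at chr7:102441695-102469771, + strand, went from 294, 417 and 256 CPM to 93.3, 187 and 179.8 CPM (-1.10 ± 0.26, adjusted p = 0.0197), and the call was lost without shControl (adjusted p = 0.166). At day 7 the shNFIB and shMLL1 libraries held more Rrm1 than the shControl library, the reverse of Rrm2. Per kilobase, Rrm2 over Rrm1 was 2.01, 1.96 and 2.39 at day 0 and 0.980, 0.309 and 0.381 at day 7, and with the longest transcript as the length 1.26, 1.23 and 1.5 and then 0.615, 0.194 and 0.240. Rrm2b, the small subunit used outside S phase and not on the list, stood at 47.5, 51.4 and 49.2 CPM and then 21.8, 36.2 and 18.5 CPM (-1.01 ± 0.24, adjusted p = 0.0192), and its level per kilobase over that of Rrm2 was 0.0968, 0.0761 and 0.0969 at day 0 and 0.288, 0.757 and 0.326 at day 7. With the longest transcript as the length, Rrm2b over Rrm2 was 0.153, 0.121 and 0.154 and then 0.456, 1.20 and 0.516.

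The 4 genes that copy chromatin and methylation had a median of -2.74. Uhrf1, which recognises hemimethylated DNA behind the fork and brings in Dnmt1, went from 193, 238 and 114 CPM to 16.5, 13.6 and 10.6 CPM, a log2 fold change of -3.70 ± 0.23 (adjusted p = 0.000497). Dnmt1, the maintenance methyltransferase, went from 146, 216 and 118 CPM to 43.6, 44.6 and 38.8 CPM (-1.87 ± 0.21, adjusted p = 0.00151). Per kilobase, Uhrf1 over Dnmt1 was 2.29, 1.91 and 1.67 at day 0 and 0.656, 0.527 and 0.474 at day 7, so Uhrf1 was the higher in every day 0 library and the lower in every day 7 library. Chaf1a and Chaf1b, subunits of the histone chaperone CAF-1, had -2.46 ± 0.27 and -3.01 ± 0.26.

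Of the factors of the G1 to S transition, E2f8, a repressor of E2F targets, stood at 29.0, 45.2 and 25.8 CPM at day 0 and 3.18, 1.42 and 2.54 CPM at day 7 (-3.80 ± 0.39, adjusted p = 0.00126). The activators E2f1 and E2f2 were lower by less, E2f1 going from 46.1, 62.6 and 39.5 CPM to 24.0, 21.0 and 18.4 CPM (-1.20 ± 0.20, adjusted p = 0.00659) and E2f2 from 4.70, 6.68 and 9.84 CPM to 1.54, 0.981 and 1.72 CPM (-2.29 ± 0.37, adjusted p = 0.00551). The E-type cyclins, partners of Cdk2, went from 25.9, 29.3 and 29.7 to 7.15, 3.96 and 3.44 CPM for Ccne1 (-2.60 ± 0.31, adjusted p = 0.00199) and from 62.5, 75.6 and 80.2 to 16.7, 12.6 and 25.3 CPM for Ccne2 (-2.04 ± 0.23, adjusted p = 0.00160). At day 7, Ccne1 was lowest and Ccne2 highest in shMLL1, where Ccne2 over Ccne1 per kilobase was 5.59 against 1.77 in shControl and 2.43 in shNFIB. Exons of Ccne2 overlap those of Ints8, and exons of E2f8 those of Gm2788, on the other strand.

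**Figure D3:**
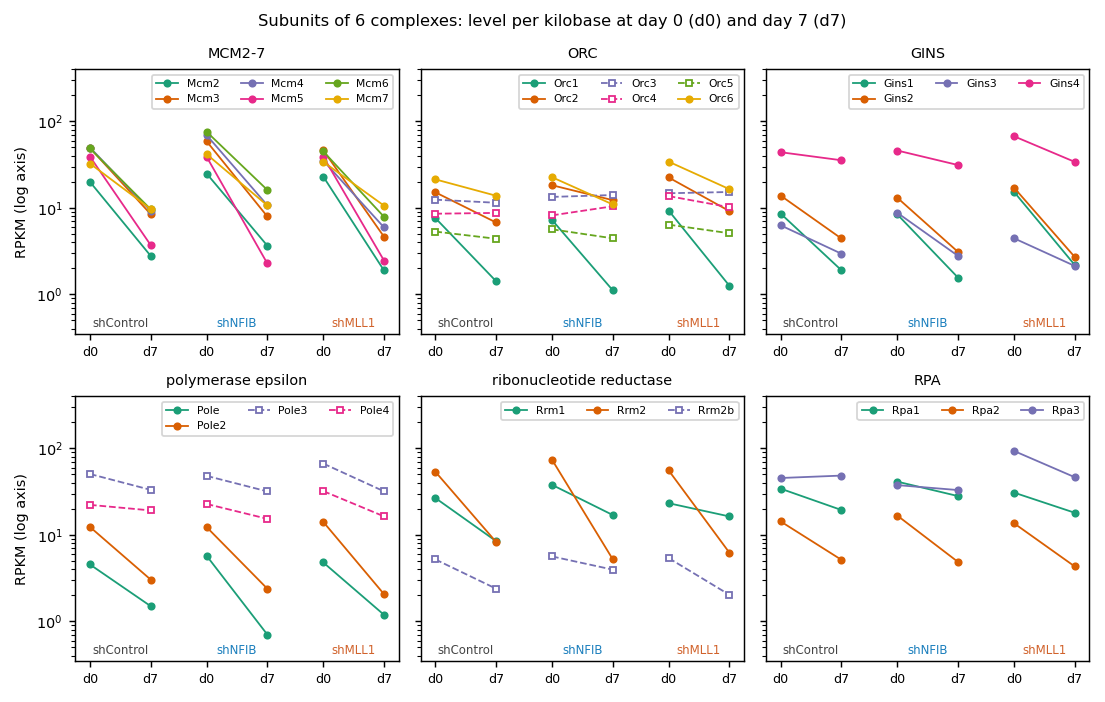
Level per kilobase of exon (RPKM, log axis) of the subunits of 6 complexes in each line at day 0 and day 7, with 1 library per point, solid lines for genes of the list and dashed lines for subunits outside it. Orc1 lies above Orc5 in every line at day 0 and below it at day 7, Gins4 is the highest GINS subunit throughout, and Rrm2 lies above Rrm1 at day 0 and below it at day 7. With the longest transcript as the length, which is not drawn, Orc1 was the lowest ORC subunit in shNFIB at day 0.

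Per kilobase, the MCM2-7 subunits lay closer together at day 0 than at day 7. The highest subunit over the lowest was 2.49, 3.04 and 2.02 at day 0 and 3.49, 7.08 and 5.62 at day 7. With the longest transcript as the length instead of all exons the same ratios were 1.36, 1.76 and 1.45 at day 0 and 3.31, 6.42 and 5.46 at day 7, with Mcm5 lowest in all 3 lines. By either length Mcm6 or Mcm7 was the highest subunit at day 7. For ORC the ratio was 4.02, 4.0 and 5.35 at day 0 and 9.71, 12.6 and 13.1 at day 7, when Orc1 was the lowest subunit in all 3 lines, and Orc1, Orc2 and Orc6 are among the genes that overlap another on the opposite strand. With the longest transcript the ORC ratio was 4.11, 4.55 and 5.47 at day 0 and 14.2, 21.5 and 20.7 at day 7. By that length Orc1 was the lowest subunit in shNFIB at day 0 as well. In the set as a whole, with all exons as the length, Pcna was the highest gene per kilobase in 5 of 6 libraries and Rpa3 in the other, shMLL1 at day 7, while E2f2 was the lowest in all 6. The order of the whole set was not computed with the longest transcript.

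A list of 53 further replication genes outside the set, chosen with earlier results known, was described with the same fit. Of these 53, 34 were lower and 1 was higher, against 17.0% and 17.7% of all genes tested. The median log2 fold change was -0.99, against -0.02 for all genes tested. Falls as large as in the set were seen for Asf1b, a histone chaperone (-3.92 ± 0.27), Ticrr, which helps load Cdc45 (-3.84 ± 0.32), Ccna2, the S phase cyclin (-3.68 ± 0.28), and E2f7, the sister of E2f8 (-3.52 ± 0.42). Dck, the deoxycytidine kinase of the salvage pathway, was also lower (-2.57 ± 0.22). The exception was Samhd1, an enzyme that breaks deoxynucleotides down, which rose from 82.2, 88.7 and 59.9 CPM to 140.0, 192 and 129 CPM (1.00 ± 0.19, adjusted p = 0.00919). Tk2, the mitochondrial thymidine kinase, had 0.38 ± 0.20 (adjusted p = 0.176) beside -3.35 ± 0.33 for Tk1. E2f3, E2f4, E2f5 and E2f6 were not called, with log2 fold changes between -0.52 and -0.07.

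Each line on its own gave 1 library against 1 and no test. At least a 2-fold lower level at day 7 was found for 42 of 50 genes in shControl, against 14.9% of all genes with at least 10 counts in the pair, for 46 in shNFIB, against 13.8%, and for 46 in shMLL1, against 19.5%. With library size alone the numbers were 41, 45 and 41, and with DESeq2's size factors 42, 46 and 47. After the length adjustment described below they were 41, 46 and 41. The higher number in shMLL1 than in shControl thus depended on the processing. A 2-fold higher level was found for 0 genes in each line, against 23.2%, 16.9% and 25.9% of all genes. The median share of the day 0 level left at day 7 was 27.9% in shControl, 18.7% in shNFIB and 17.5% in shMLL1. Before treatment the highest of the 3 libraries was shNFIB for 24 genes, shMLL1 for 23 and shControl for 3. Among all 15741 genes tested it was shNFIB for 6766, shMLL1 for 5436 and shControl for 3539. At day 7 it was shControl for 30 of the 50 genes, shNFIB for 11 and shMLL1 for 9. Among all genes tested it was then shControl for 4788, shNFIB for 6228 and shMLL1 for 4725. The median ratio of the highest to the lowest library was 1.44 at day 0 and 1.56 at day 7, against 1.63 and 1.59 for all genes tested. Of the 50 genes, 34 kept their largest share in shControl, 11 in shMLL1 and 5 in shNFIB, and the smallest share was in shNFIB for 25, in shMLL1 for 23 and in shControl for 2. The largest and smallest shares were not counted over all genes, so these numbers have no background beside them.

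The lowest shares were 8.55% for Uhrf1 in shControl, 3.15% for E2f8 in shNFIB and 6.31% for Mcm5 in shMLL1. Rrm1 stood apart in shMLL1, where it kept 70.3% while Tk1, Dut, Rrm2 and Tyms kept between 9.10% and 13.6%. Gmnn kept 30.5%, 11.5% and 8.69%, Pole kept 33.0%, 12.3% and 24.8%, and Rfc2 kept 68.8%, 37.8% and 67.0%. With 1 library per condition, the difference between lines in the day effect has no test.

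**Figure D4:**
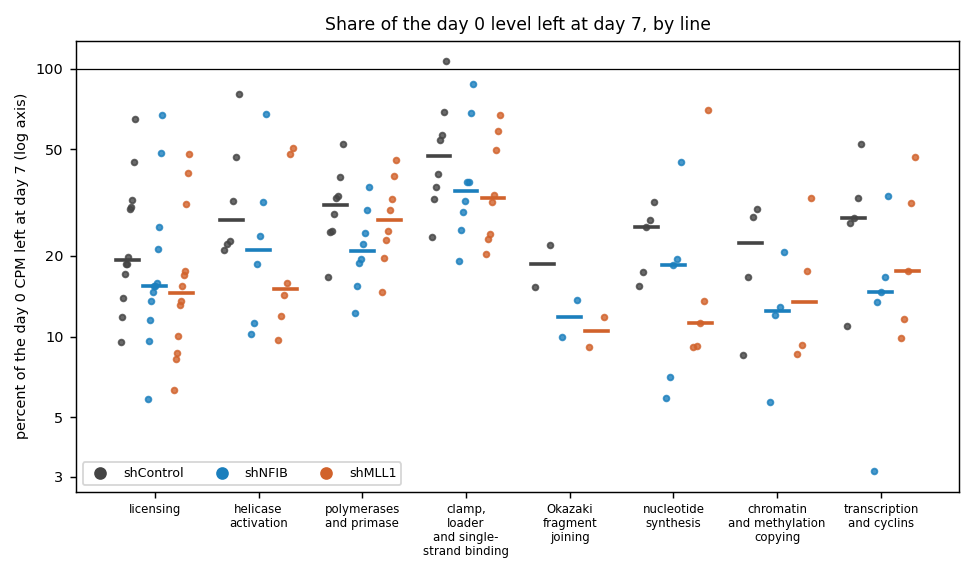
Share of the day 0 level, in percent of CPM, left at day 7 (log axis) for each gene by role and line, with bars for the median of a group. The shControl medians are the highest in all 8 groups, and the point of Rpa3 lies above 100% in shControl.

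Whether each knockdown differed from shControl on average over both days was put to the same fit. Differences of opposite sign at day 0 and day 7 cancel in that average. For shNFIB the median log2 ratio of the 50 genes was 0.27 at day 0 and -0.34 at day 7. For shMLL1 it was 0.11 and -0.31. The fit therefore cannot say whether a knockdown changed these genes on a single day. None of the 50 genes was called: for shNFIB 0 were lower and 0 higher, against 0.210% and 0.0826% of all genes, and for shMLL1 0 were lower and 0 higher, against 0.0191% and 0.0127%. DESeq2 also called 0 for either knockdown. At an unadjusted p under 0.05, edgeR had 1 gene for shNFIB (Mcm6) and 2 for shMLL1 (Uhrf1 and Mcm4), against 12.2% and 9.0% of all genes tested, and DESeq2 had 2 and 1. The targeted genes themselves were not called in this fit, with adjusted p values of 0.140 for Nfib in shNFIB and 0.173 for Kmt2a in shMLL1.

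Set side by side at each day, the knockdowns differed from shControl by less than 2-fold for most genes. Both are set against the same shControl libraries, so their values are not independent. At day 0, shNFIB had 0 genes past 2-fold lower and 0 higher, against 6.80% and 7.49% of all genes, with a median log2 ratio of 0.27 (0.08 for all genes). In shMLL1 0 were lower and 3 higher, against 9.47% and 11.6%, with a median of 0.11 (-0.03). The 3 were Dut at 1.07 (95% interval 0.99 to 1.15), E2f2 at 1.07 (95% interval 0.78 to 1.36) and Rpa3 at 1.04 (95% interval 0.95 to 1.13), where the interval covers counting error alone.

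At day 7 the medians were -0.34 for shNFIB and -0.31 for shMLL1 (-0.01 and -0.02 for all genes). In shNFIB 5 genes were past 2-fold lower and 1 higher, against 13.6% and 8.37% of all genes. They were Tk1 (-1.18), E2f8 (-1.16), Gmnn (-1.11), Pole (-1.09) and Prim1 (-1.05), and the higher gene was Rrm1 at 1.00 (95% interval 0.94 to 1.07), which was under 2-fold with other scalings. In shMLL1 4 were lower and 0 higher, against 7.07% and 9.36%. They were Fen1 (-1.40), Gmnn (-1.24), Mcm10 (-1.13) and Ccne1 (-1.05), and Rrm1 stood at 0.95 (95% interval 0.88 to 1.01). An exact test at an assumed biological coefficient of variation of 0.2 called none of these 13 differences.

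**Figure D5:**
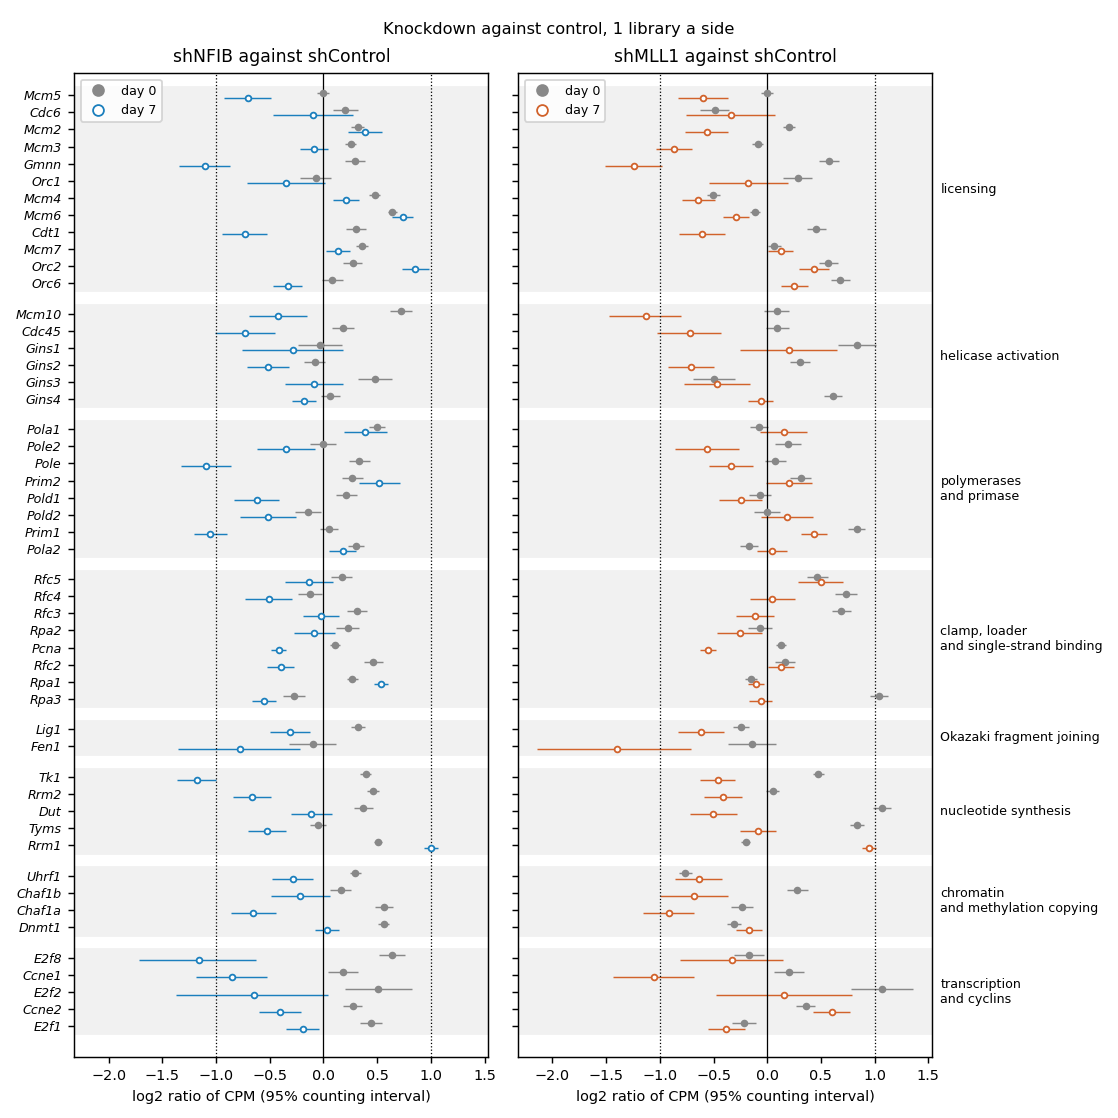
Log2 ratio of CPM of shNFIB (left) and shMLL1 (right) against shControl for each gene by role, with grey points for day 0, open points for day 7, bars for 95% counting intervals and dotted lines at 2-fold. Most points lie between the dotted lines on both days, and Rrm1 at day 7 lies near 1 in both panels.

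Gene length moved with these ratios in all genes. Among protein-coding genes tested, the median log2 ratio of shMLL1 against shControl at day 0 was 0.36 for the 526 genes with a longest transcript of at most 1000 bases and -0.34 for the 1159 genes over 7000 bases. For shNFIB the medians were -0.28 and 0.27 at day 0 and -0.43 and 0.39 at day 7. For shMLL1 at day 7 they were -0.26 and 0.23, the reverse of its trend at day 0. Rpa3, the gene of the set with the least exon sequence, and Dut were 2 of the 3 genes past 2-fold in shMLL1 at day 0. When the median of the same length class was subtracted, an alternative chosen after the values were seen, E2f2 was the 1 gene left past 2-fold there, and the medians of the 50 genes became 0.19 and 0.15 at day 0 and -0.29 and -0.25 at day 7. The ratios of day 7 to day 0 moved with length too. From the shortest class to the longest, their medians went from 0.20 to -0.36 in shControl and from 0.05 to -0.19 in shNFIB. In shMLL1 they went the other way, from -0.42 to 0.26. The day medians of the 50 genes were -1.84, -2.42 and -2.51, and -1.76, -2.34 and -2.48 after the adjustment.

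Some genes of the set start close to a gene that reads the other way. For 12 of the 50 genes, 13 annotated neighbours start on the opposite strand within 1000 bases upstream, and 12 of the neighbours had enough counts to be tested. Of these, 0 were called lower and 0 higher at day 7, where 11 of the 12 genes beside them were called lower and 17.0% and 17.7% of all genes tested were lower and higher. Of the 12 neighbours, 7 stayed under 5 CPM in all 6 libraries, with standard errors between 0.36 and 0.55, against 0.18 to 0.27 for the other 5, so for those 7 a missing call says little. Prpf38a, a splicing factor gene whose start lies 87 bases from that of Orc1, stood at 65.1, 51.8 and 94.8 CPM at day 0 and 50.7, 51.7 and 59.0 CPM at day 7 (-0.35 ± 0.21), while Orc1 had -2.66 ± 0.23. Prkdc, the gene of the DNA-dependent protein kinase and the neighbour of Mcm4, stood at 35.9, 35.8 and 21.6 CPM and then 24.8, 27.0 and 28.4 CPM (-0.18 ± 0.23), while Mcm4 had -2.56 ± 0.19. Abhd12, beside Gins1, had 0.52 ± 0.18 and Pxmp2, beside Pole, had 1.09 ± 0.37, both without a call (adjusted p = 0.0647 and 0.0580).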

How the data were processed

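RNA was sequenced from C3H10T1/2 cells carrying shControl, shNFIB or shMLL1 hairpins at day 0 and day 7, with 1 library per condition. The authors deposited raw read counts per gene. Per the labels and the submitters' processing notes they used Trimmomatic 0.39, HISAT2 2.2.1, SAMtools 1.12 and HTSeq 0.11.1 on mm10, with low-quality alignments and duplicates removed. The strand setting and annotation release are not given in the sources used here. The table held no row without a gene.

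The 50 genes and all lists were chosen with earlier results of these data known. Every gene of the list was reported in its role group. Positions and lengths came from the GENCODE annotation of GRCm38 and promoter windows from RefSeq. CPM and RPKM were computed here from the counts with trimmed mean of M-values (TMM) factors. The day effect was fitted with edgeR 4.0.16 in R 4.3.3 (quasi-likelihood test, filterByExpr by day, line as block, 15741 genes, 2 residual degrees of freedom), with calls at an adjusted p under 0.05 (Benjamini-Hochberg over all genes tested). The block was used because both days of a line are the same cells, and how far a line's day 0 and day 7 libraries departed from the average of each day correlated across genes at 0.434 for shControl, 0.430 for shNFIB and 0.271 for shMLL1. Knockdown effects were fitted over both days with the same test and were not tested by day, since no degrees of freedom remain for line by day. Nothing in the sources says that libraries came from separate cultures. Single pairs of libraries were described by fold with a prior count of 0.125, for genes with at least 10 summed counts, and their 95% Clopper-Pearson intervals cover counting error only. Totals per library set this precision.

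DESeq2 1.42.0, other scalings, other filters, an exact test at an assumed biological coefficient of variation of 0.2, leaving out each line, other gene lengths and a length adjustment were tried as alternatives. The scripts were tested on simulated data. Python 3.11.15, scipy 1.17.1 and matplotlib 3.10.9 were used for the rest.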

Additional observations from a re-analysis of the deposited data

Results flagged for a closer look

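Rpa3 stood apart between lines from day 0 to day 7, with log2 ratios of 0.093 (shControl), -0.19 (shNFIB) and -1.01 (shMLL1). After the length adjustment, chosen after seeing the data, the Rpa3 values were -0.11, -0.24 and -0.58, so the sign in shControl turned and all 3 lines were below 0. The difference between lines was not tested, since each value comes from 1 library against 1.

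The position of the knockdown lines relative to shControl differed between days. In shNFIB, 29 of the 50 genes lay above shControl at day 0 and below it at day 7, and 0 lay below and then above. In shMLL1 the corresponding numbers were 19 and 4. After the length adjustment they were 28 and 0 in shNFIB and 23 and 2 in shMLL1, and the genes below shControl at day 0 in shMLL1 went from 20 to 12. Both lines are set against the same shControl libraries and these differences were not tested. The same counts were not made over all genes, so whether the change of side is particular to these 50 genes is not known.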

How the results depend on the processing

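The number of the 50 genes called lower at day 7 was 49 with DESeq2, 48 with DESeq2's size factors, 46 with library size alone, 49 with all genes kept and 47 with no replicate block, and between 44 and 48 when a line was left out. Leaving out a line moved the median log2 fold change between -2.53 and -2.16. Library size alone moved the day median of all genes tested from -0.02 to 0.11. Of the differences past 2-fold between a knockdown and shControl, an exact test at an assumed biological coefficient of variation of 0.2 called 0 in place of 3 higher in shMLL1 at day 0, 0 in place of 5 lower and 0 in place of 1 higher in shNFIB at day 7, and 0 in place of 4 lower in shMLL1 at day 7. The 1 gene higher in shNFIB at day 7 became 0 with library size alone, 0 with DESeq2's size factors and 0 after the length adjustment, which was chosen after seeing the data and also left 1 of the 3 in shMLL1 at day 0. Library size alone gave 1 gene higher in shMLL1 at day 7 in place of 0. With the longest transcript as the length, the median over the day 0 libraries fell from 2.49 to 1.45 for the highest over the lowest MCM2-7 subunit and from 2.01 to 1.26 for Rrm2 over Rrm1. The remaining 105 comparisons with an alternative stayed on the same side of their threshold or, for values with no threshold, within 1.5 times of a count or the spread between libraries. With 1 library per condition, depth bounds the counting error alone.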
